A study of Danio rerio with 16 samples.

Results

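Gluconeogenesis is the synthesis of new glucose from lactate, amino acids and glycerol, and in fish as in mammals it takes place mainly in the liver and the kidney. Most of its steps are glycolytic reactions run backwards, and the route is set apart by a few enzymes that bypass the irreversible glycolytic steps. Among them are phosphoenolpyruvate carboxykinase, fructose-1,6-bisphosphatase and glucose-6-phosphatase. In mammalian liver their transcription is raised in fasting by glucagon and glucocorticoids, with the coactivator PGC-1alpha among the relays, and lowered by insulin. Here 7 zebrafish genes were followed: pck1 and pck2 for the first of these enzymes, fbp1a and fbp1b for the second, g6pca.1 and g6pca.2 for the third, and ppargc1a, which encodes PGC-1alpha. They were chosen by name from 31812 genes in the table, with earlier results of these data known. All 7 were among the 24462 genes with enough counts to test.

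The treated group consisted of wild-type WIK larvae at 5 dpf (days postfertilization) that were kept for 6 h in 1.6 µM triptolide (TP), a diterpenoid of the thunder god vine, and its reference was larvae of the same line, age and duration in vehicle (DMSO in the study's methods). RNA came from whole larvae, with 8 pools a group (n = 8), 30 larvae to a pool and 480 larvae in all, so liver, kidney, gut and every other tissue contributed to each value. Counts per library ran from 26631852 to 41093922 in TP pools and from 19679120 to 75490916 in control pools, and levels are given as CPM (counts divided by the library total, times 1e+06). The groups were compared with edgeR's quasi-likelihood test on gene counts, each the sum of the gene's transcripts, scaled by library totals alone, and a Benjamini-Hochberg adjusted p of 0.01 or less over all genes counted as changed. Fold changes are log2 of TP over control. In pooled whole larvae, fewer cells of a type and less RNA per cell cannot be told apart.

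Many genes differed between the groups. Under library totals 41.9% of tested genes were lower in TP and 4.59% were higher, and the median over all genes was a log2 fold change of -0.35. Scaling by TMM factors, which centre most genes on no change, brought that median to -0.00107, with 16.5% of genes lower and 15.9% higher. The shares of all genes called were counted only at the adjusted threshold under these 2 scalings. Counts at an unadjusted p, with DESeq2 or with limma thus have no background beside them. Values under both scalings are therefore given for each of the 7 genes, and for other genes where the call is lost with TMM factors. The mitochondrial ribosomal RNA AC024175.4 took 22.0% to 25.4% of counts in TP pools and 18.1% to 22.2% in control pools. The libraries also differed in a gene known by its clone name, si:dkey-153m14.1, which took under 2% of counts in 2 TP and 4 control libraries and at least 2% in 6 TP and 4 control libraries. The cut at 2% does not follow the widest gap in these shares. TP libraries 1 and 2, at 2.18% and 2.16%, lay just above it. Libraries 1 to 4 of each group were at 0.548% to 2.18%, and libraries 5 to 8 at 3.16% to 6.42%. No fit was made with this second grouping. Neither label nor header says what sets these libraries apart. Values within each set are given for pck2 and pck1, and calls lost in a set are given in the closing section.

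All 7 genes were lower in TP larvae under library totals, against the background of 41.9% of genes, and 0 were higher with edgeR, also at an unadjusted p under 0.05 and with TMM factors, DESeq2 or limma. pck1 and g6pca.2 fell to 22.8% and 26.8% of the mean control level, and the other 5 genes to between 54.2% (fbp1b) and 73.8% (pck2). With TMM factors 3 of 7 genes passed the threshold, pck1, g6pca.2 and fbp1b, against 16.5% of all genes. These 3 passed under every scaling, tool, filter, library set and left-out library that was run. For 4 genes (pck1, g6pca.2, fbp1b and fbp1a) every TP pool lay below every control pool, as it did for 20.9% of tested genes.

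**Figure D1:**
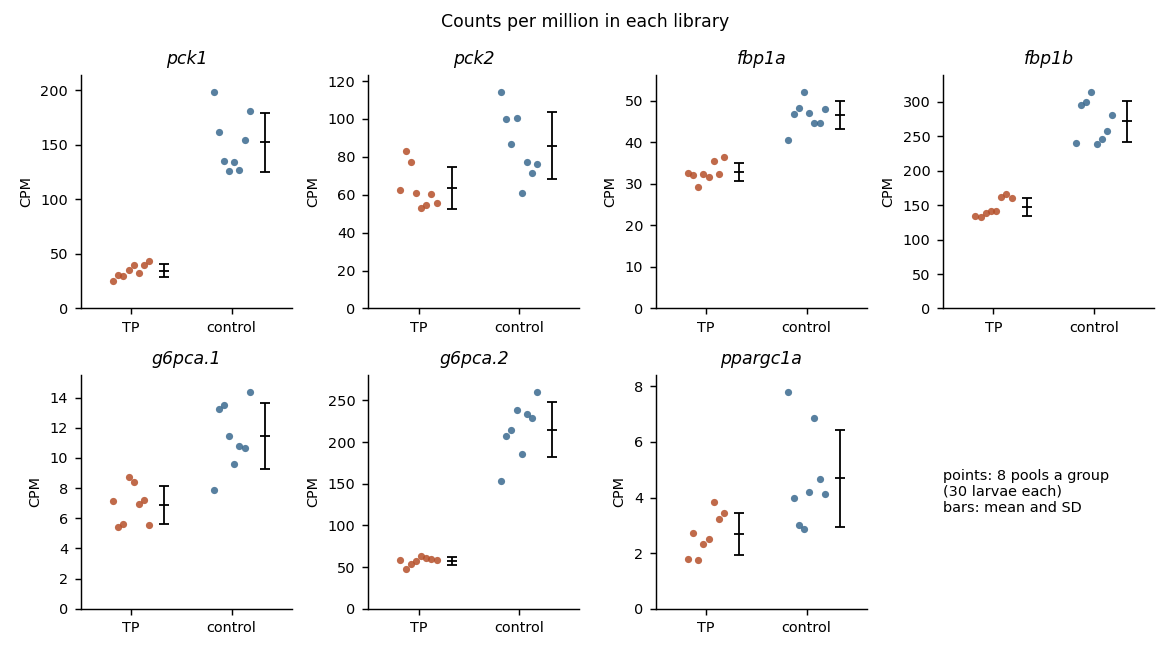
CPM of the 7 genes in each library (points, 8 TP and 8 control pools of 30 larvae), with the mean and SD of each group as bars; every vertical axis starts at 0. The groups do not overlap for pck1, fbp1a, fbp1b and g6pca.2, and they overlap for pck2, g6pca.1 and ppargc1a.

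Phosphoenolpyruvate carboxykinase turns oxaloacetate into phosphoenolpyruvate, and pck1 encodes its cytosolic form, the classical hormone-controlled gene of the route. pck1 (ENSDARG00000013522) lies on chromosome 6 from 60060245 to 60067174 in GRCz10, with 2 transcripts in the table. Its lowest, median and highest levels were 25.2, 33.9 and 43.3 CPM in TP pools, against 126, 145 and 199 CPM in control pools. The highest TP pool thus lay far below the lowest control pool. On the log2 scale pck1 was at -2.14 relative to control (standard error 0.12, adjusted p = 2.2e-11 from edgeR), and 0.282% of tested genes had a lower value. With TMM factors it was -1.79.

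The mitochondrial form, pck2 (ENSDARG00000020956), lies on chromosome 24 from 12775600 to 12794503 and has 1 transcript in the table. Its lowest, median and highest levels were 52.9, 60.5 and 83.0 CPM in TP pools, against 61.2, 82.1 and 114 CPM in control pools. The groups overlapped, and 5 of 8 TP pools were below the lowest control pool. The log2 fold change was -0.44 (standard error 0.12, adjusted p = 0.0042 from edgeR), and -0.08 with TMM factors (adjusted p = 0.49 from edgeR), so the call rests on the scaling. The adjusted p from edgeR moved to 0.0105 without TP library 5 or without control library 2, and over all alternatives it ran between 0.00105 and 0.53 (edgeR, limma and DESeq2).

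The control pools of pck2 also separated by the si:dkey-153m14.1 share. In TP pools pck2 was at 60.8 and 77.5 CPM where that share was under 2% and at 52.9 to 83.0 CPM in the other 6, while in control pools it was at 86.8 to 114 CPM under 2% and at 61.2 to 77.4 CPM in the other 4. The control ranges of the 2 sets did not overlap. Grouped instead as libraries 1 to 4 and 5 to 8, TP pools were at 60.8 to 83.0 CPM and 52.9 to 60.2 CPM, also without overlap. The control sets are the same under both groupings. Within libraries 1 to 4 and within libraries 5 to 8 every TP pool was below every control pool, by little in the latter. Within the libraries under 2% the log2 fold change of pck2 was -0.54 (adjusted p = 0.031 from edgeR), and within the others it was -0.22 (adjusted p = 0.13 from edgeR). The part of either grouping in the pck2 result was not tested further, and the grouping as libraries 1 to 4 and 5 to 8 was made after the values were seen. pck1 did not separate in this way in control pools, at 126 to 199 CPM under 2% and 127 to 181 CPM in the others.

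Fructose-1,6-bisphosphatase removes a phosphate from fructose-1,6-bisphosphate, the step opposite phosphofructokinase, and mammalian FBP1 is its liver and kidney form. fbp1b (ENSDARG00000020364) lies on chromosome 5 from 34858037 to 34861973, with 3 transcripts. Its lowest, median and highest levels were 133, 142 and 166 CPM in TP pools, against 239, 269.5 and 315 CPM in control pools, with no overlap. On the log2 scale fbp1b was at -0.88 relative to control (standard error 0.08, adjusted p = 8.3e-09 from edgeR) and -0.54 with TMM factors (adjusted p = 1.4e-05 from edgeR).

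fbp1a (ENSDARG00000021366) lies on the same chromosome from 44174925 to 44243585, with 2 transcripts. Its lowest, median and highest levels were 29.3, 32.4 and 36.5 CPM in TP pools, against 40.5, 46.9 and 52.1 CPM in control pools. Every TP pool was again below every control pool, and the pools of a group were close together, with a coefficient of variation of 6.84% in TP and 7.31% in control, the lowest of the 7 genes in each group. The log2 fold change was -0.50 (standard error 0.06, adjusted p = 1.7e-06 from edgeR), a value below which 36.0% of tested genes lay. With TMM factors fbp1a was at -0.16 (adjusted p = 0.11 from edgeR), past no threshold.

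Glucose-6-phosphatase releases free glucose from glucose-6-phosphate in the endoplasmic reticulum, the last step of the route and also of glycogen breakdown in liver. Its catalytic subunit has tandem copies in zebrafish, g6pca.1 (ENSDARG00000031616, chromosome 12 from 5989911 to 6000263) and g6pca.2 (ENSDARG00000013721, chromosome 12 from 6007978 to 6014702), with 7714 bases between them. Reads that fit both copies could have been placed on either, so the level of each is uncertain to that extent. g6pca.2 had a lowest, median and highest level of 48.0, 58.6 and 63.5 CPM in TP pools, against 153.1, 221 and 260 CPM in control pools. No pools overlapped, and all control pools lay far above all TP pools. The log2 fold change of g6pca.2 was -1.90 (standard error 0.09, adjusted p = 4.4e-12 from edgeR), with 0.556% of tested genes lower, and -1.57 with TMM factors.

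g6pca.1 was the copy with the lower level. Its lowest, median and highest levels were 5.42, 7.06 and 8.71 CPM in TP pools, against 7.85, 11.1 and 14.4 CPM in control pools. Control library 1, the lowest control pool, lay inside the TP range, and the other 7 control pools were above it. The log2 fold change of g6pca.1 was -0.74 (standard error 0.13, adjusted p = 7.3e-05 from edgeR) and -0.39 with TMM factors (adjusted p = 0.032 from edgeR), which is not past the threshold.

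PGC-1alpha is a coactivator that, in mouse liver, raises pck1 and glucose-6-phosphatase transcription together with other factors, and in many tissues drives mitochondrial genes. ppargc1a (ENSDARG00000067829), on chromosome 7 from 70128523 to 70219243 with 1 transcript, had the lowest counts of the 7 genes, 746 over the TP libraries and 1270 over the control libraries. Its lowest, median and highest levels were 1.75, 2.60 and 3.83 CPM in TP pools, against 2.87, 4.17 and 7.79 CPM in control pools. The groups overlapped, and 6 of 8 control pools lay above the highest TP pool. For ppargc1a the log2 fold change was -0.80 (standard error 0.21, adjusted p = 0.0033 from edgeR), between -0.89 and -0.65 with each library left out, and -0.45 with TMM factors (adjusted p = 0.083 from edgeR).

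**Figure D2:**
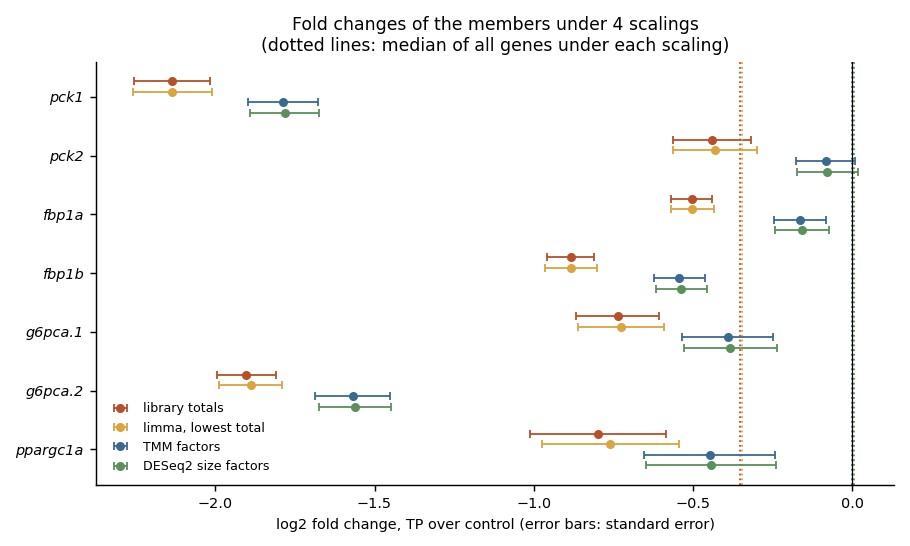
Log2 fold change (TP over control) of the 7 genes with its standard error under library totals, limma on counts scaled to the lowest total, TMM factors and DESeq2 size factors; dotted lines give the median of all tested genes under each. pck1 is at -2.14 under library totals and -1.79 under TMM factors, while pck2 is at -0.44 and -0.08.

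The 7 genes have 17 transcripts in the table. Each was tested alone, and 16 were lower in TP with edgeR while 0 were higher, against 36.7% of 43770 tested transcripts lower. The exception was ENSDART00000131301, a short g6pca.1 transcript at 0.520 ± 0.398 CPM in TP and 1.05 ± 0.364 CPM in control pools (SD, n = 8 each), with a log2 fold change of -1.02 and an adjusted p of 0.017 from edgeR. Transcript fold changes ran from -2.35 to -2.12 for pck1, from -0.55 to -0.47 for fbp1a and from -0.94 to -0.86 for fbp1b. They ran from -1.02 to -0.71 for g6pca.1 and from -2.32 to -1.83 over the 5 transcripts of g6pca.2. Transcripts of 1 gene share reads and are not independent.

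Levels per kilobase were summed over the annotated transcripts of each gene, so short transcripts raise the genes that have them. pck1 has one of 708 bases, while the only pck2 transcript has 3414 bases. Orders and shares of genes per kilobase hold only within this limit. The order of the mean levels in TP pools was fbp1b (131 CPM per kb), g6pca.2 (29.1), fbp1a (22.9), pck2 (18.6), pck1 (15.7), g6pca.1 (6.00) and ppargc1a (0.922). In control pools it was fbp1b (243 CPM per kb), g6pca.2 (114), pck1 (70.8), fbp1a (32.6), pck2 (25.2), g6pca.1 (10.2) and ppargc1a (1.60). pck1, above fbp1a and pck2 in control larvae, was below them in TP larvae. Some neighbours did not differ beyond the spread of the pools. In TP pools the ranges per kb of g6pca.2 (24.1 to 31.7) and fbp1a (20.4 to 25.5) overlapped. So did those of fbp1a and pck2 (15.5 to 24.3) and those of pck2 and pck1 (11.3 to 19.8). In control pools those of g6pca.2 (82.5 to 137) and pck1 (57.4 to 89.2) overlapped, as did those of fbp1a (28.5 to 36.3) and pck2 (17.9 to 33.5).

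Whether the copies of each enzyme changed by the same amount was tested with ratios within a library, which need no scaling between libraries. The log2 ratio of pck1 to pck2, with 1 CPM added to each, averaged -0.85 ± 0.42 in TP pools and 0.83 ± 0.30 in control pools (SD, n = 8 each). Its difference was -1.68 (standard error 0.18, 2-sided exact permutation test, adjusted p = 2.3e-04 over 3 pairs), and the groups did not overlap. On the linear scale the ratio was between 0.382 and 0.778 in TP pools and between 1.26 and 2.36 in control pools. The per-kilobase level is a different measure, which the short pck1 transcript raises. By it pck1 made up 37.1% to 54.8% (median 47.8%) of the sum of both genes in TP pools, against 66.9% to 78.9% (median 72.4%) in control pools.

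The glucose-6-phosphatase copies differed in the same test. The log2 ratio of g6pca.1 to g6pca.2 averaged -2.90 ± 0.17 in TP pools and -4.12 ± 0.17 in control pools (SD, n = 8 each), a difference of 1.22 (standard error 0.09, exact permutation test, adjusted p = 2.3e-04), with no overlap. The more abundant copy therefore fell further, within the limit that reads fitting both copies could have been placed on either. Per kilobase g6pca.2 made up a median of 83.6% of the sum in TP pools and 91.8% in control pools.

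The fructose-1,6-bisphosphatase genes differed by less. The log2 ratio of fbp1b to fbp1a averaged 2.13 ± 0.11 in TP pools and 2.52 ± 0.10 in control pools (SD, n = 8 each), a difference of -0.39 (standard error 0.05, exact permutation test, adjusted p = 3.1e-04). The groups touched, since the highest TP pool had a ratio of 5.02 and the lowest control pool one of 5.01. For each enzyme the gene with the higher control level per kilobase was the gene that fell further.

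**Figure D3:**
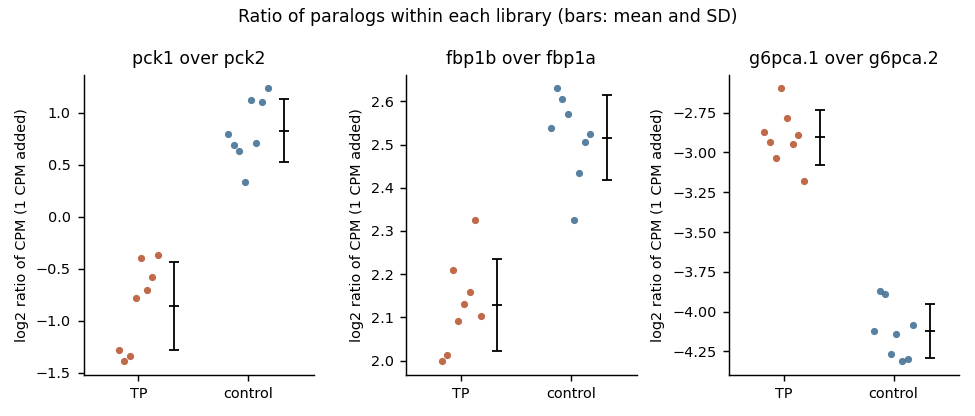
Log2 ratio of the paralogs of each enzyme within each library (points, 8 TP and 8 control pools, 1 CPM added), with mean and SD as bars; the vertical axes differ between panels and do not start at 0. The TP and control pools separate for pck1 over pck2 and for g6pca.1 over g6pca.2, with differences of -1.68 and 1.22, and touch for fbp1b over fbp1a, with a difference of -0.39.

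The genes were next set against markers of the tissues that express the route. Of 18 hepatocyte markers 4 (22.2%) were lower and 3 (16.7%) higher in TP under library totals, and 11 did not pass the test. Of all tested genes 41.9% were lower and 4.59% higher. With TMM factors 2 markers were lower and 8 higher, against 16.5% and 15.9% of all tested genes. With DESeq2 2 markers were lower and 9 higher, and the share of all genes was not counted. fabp10a, the liver fatty acid binding protein that defines zebrafish hepatocytes, was at 304 ± 11.4 CPM in TP and 234 ± 26.2 CPM in control pools (SD, n = 8 each), a log2 fold change of 0.38, and tfa (transferrin) and ambp also rose. rbp4 (retinol binding protein) fell to 307 ± 33.6 CPM in TP against 1087 ± 110 CPM in control pools, and uox, fgb and fga were lower too. With TMM factors rbp4 and uox passed as lower, at -1.49 and -0.35, and fgb and fga did not, at -0.24 and -0.03. Summed, the hepatocyte markers ran from 2808 to 3770 CPM in TP and from 3138 to 4203 CPM in control pools. Highest on average over all libraries, and so weighing most in the sum, were apoa2 (1086 CPM), rbp4 (697 CPM) and tfa (632 CPM). Their log2 fold changes were 0.12, -1.82 and 0.43. Without rbp4 the sums were 2546 to 3403 CPM in TP and 2091 to 2943 CPM in control pools.

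Relative to the hepatocyte marker sum of the same library, 6 of the 7 genes were lower in TP (2-sided exact permutation tests, adjusted p of 0.05 or less over 7 genes). The same ratio was not taken for other genes, so no background share stands beside this count. The median log2 fold change of all tested genes was -0.35 under library totals, and that of the hepatocyte markers was -0.10. The log2 ratio differed by -1.92 for pck1, -1.68 for g6pca.2 and -0.67 for fbp1b, each with an adjusted p of 3.6e-04 from the exact permutation test and no overlap of the groups. It differed by -0.52 for g6pca.1, -0.29 for fbp1a and -0.22 for pck2 (each adjusted p = 0.0098, exact permutation test), with overlap. For ppargc1a it differed by -0.56 (adjusted p = 0.073, exact permutation test), which is not past the threshold. Another choice of markers lowered all 7 differences by the same amount. Against fabp10a alone they were -2.52 for pck1, -2.27 for g6pca.2, -1.27 for fbp1b, -1.15 for ppargc1a, -1.11 for g6pca.1, -0.89 for fbp1a and -0.81 for pck2. Against the sum without rbp4, a choice made after seeing the data, they lay between -2.29 for pck1 and -0.58 for pck2, with ppargc1a at -0.92, and all 7 passed under either choice. However, fabp10a rose in TP, and the median sum without rbp4 was 2710 CPM in TP and 2647 CPM in control pools. With the median of all tested genes at -0.35, passing here does not set the 7 genes apart from other genes. ppargc1a also passed without TP library 6 (-0.66), without control library 3 (-0.65) or without control library 4 (-0.68). Within the libraries at or over 2% of si:dkey-153m14.1, the difference for pck2 was -0.10 (adjusted p = 0.14, exact permutation test), past no threshold.

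Markers of other tissues were examined in the same way, against 41.9% of all tested genes lower and 4.59% higher. Of 9 pronephros tubule markers 4 were lower and 0 higher with edgeR under library totals, where 0 were higher also at an unadjusted p under 0.05. With TMM factors, DESeq2 or limma 0 passed as higher, while 1 was higher at an unadjusted p under 0.05 with TMM factors and 1 with DESeq2. As lower, 2 passed with TMM factors, 3 with DESeq2 and 4 with limma. With TMM factors 16.5% of all tested genes were lower and 15.9% higher. The sum of these markers ran from 162 to 203 CPM in TP and from 195 to 364 CPM in control pools. Enterocyte markers were lower for 6 of 10 and higher for 0 with edgeR under library totals, where 0 were higher also at an unadjusted p under 0.05. Here too 0 passed as higher with TMM factors, DESeq2 or limma, while 1 was higher at an unadjusted p under 0.05 with TMM factors and 1 with DESeq2. As lower, 5 of the 10 passed with TMM factors, 5 with DESeq2 and 6 with limma. The enterocyte sums were 727 to 1040 CPM in TP and 1495 to 2861 CPM in control pools. Of 10 skeletal muscle markers 9 rose, with sums of 29678 to 36994 CPM in TP and 23384 to 30358 CPM in control pools. The part of these tissues in the levels of the 7 genes was not tested.

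Of 26 other enzymes and carriers 25 could be tested, and 4 (16%) were lower, 2 (8%) higher and 19 past no threshold. Of all tested genes 41.9% were lower and 4.59% higher. The list had a median log2 fold change of -0.04 (all genes -0.35). tat (tyrosine aminotransferase, which feeds amino acid carbon into the route) fell to 75.6 ± 11.6 CPM in TP against 197 ± 35.2 CPM in control pools (SD, n = 8 each), a log2 fold change of -1.38 and of -1.04 with TMM factors. sdsl, related to serine dehydratase, and fbp2, the muscle type of fructose-1,6-bisphosphatase, were lower, at -0.57 and -0.51, and with TMM factors at -0.22 and -0.17, where neither passed. gpd1c (glycerol-3-phosphate dehydrogenase) and mdh2 (mitochondrial malate dehydrogenase) were higher, at 0.40 and 0.26, and passed as higher with TMM factors too.

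The genes of the first committed step of the route and of some other glucose-6-phosphate steps, named after their values were seen, gave other values. The pyruvate carboxylase gene pcxa was at 71.6 ± 6.94 CPM in TP and 71.7 ± 10.4 CPM in control pools (SD, n = 8 each), a log2 fold change of -0.00231, and pcxb at -0.08. With TMM factors they were at 0.35 for pcxa and 0.28 for pcxb, where pcxa passed as higher. Over the list 12 genes were then higher and 1 lower, against 15.9% and 16.5% of all tested genes. slc37a4a, a glucose-6-phosphate carrier of the endoplasmic reticulum, was at -0.26, and at 0.09 with TMM factors, and g6pc3, a more widely expressed glucose-6-phosphatase, at -0.35, and at -0.00026 with TMM factors, past no threshold under either. g6pcb, a further glucose-6-phosphatase gene, had too few counts to test.

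Of 52 regulators of the route 51 could be tested, and 29 (56.9%) were lower, 2 higher and 20 past no threshold, with a median log2 fold change of -0.53, against 41.9% of all tested genes lower and 4.59% higher. With TMM factors 15 were lower and 6 higher, against 16.5% and 15.9% of all tested genes. The largest falls among the genes named by rule were in cebpd (C/EBP delta, a stress-induced transcription factor, at 47.9 ± 6.82 CPM in TP and 124 ± 23.5 CPM in control pools), with a log2 fold change of -1.37, in prox1a, a homeobox factor of liver and lymphatic development, at -1.29, and in klf11a, a Krüppel-like factor, at -1.05. The 3 also passed with TMM factors, at -1.05, -0.94 and -0.69. pparaa and pparab, for the fatty-acid-sensing nuclear receptor PPAR alpha, were higher at 0.64 and 0.51. The CREB coactivator crtc2 and the hepatocyte factor hnf4a, named after their values were seen, were at -0.10 and -0.17, and at 0.24 and 0.19 with TMM factors, past no threshold under either. Other regulators did fall. The glucocorticoid receptor gene nr3c1 and cebpa, also named after their values were seen, were at -0.57 and -0.90. With TMM factors both passed as lower too, at -0.22 and -0.56.

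Of 22 genes for hormones, receptors and relays 20 could be tested, and 8 (40%) were lower, 0 higher and 12 past no threshold. The shares of all tested genes were 41.9% lower and 4.59% higher, and the list median was -0.22. At an unadjusted p under 0.05 from edgeR 0 list genes were higher as well, and 0 with limma, settings for which the share of all tested genes was not counted. With TMM factors 3 were higher and 3 lower, against 15.9% and 16.5% of all tested genes, and with DESeq2 3 and 3 as well. igfbp1a, for an IGF-binding protein that insulin lowers and fasting raises in mammalian liver, fell to 12.8 ± 2.69 CPM in TP against 53.0 ± 10.7 CPM in control pools (SD, n = 8 each), a log2 fold change of -2.06. Its copy igfbp1b was at -1.77, and both passed with TMM factors, at -1.71 and -1.44. The glucagon gene gcgb was at -1.02 and at -0.65 with TMM factors (adjusted p = 0.019 from edgeR). Insulin (ins) and the other glucagon gene, gcga, named after their values were seen, were at -0.12 and -0.20, and at 0.22 and 0.16 with TMM factors, past no threshold under either.

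Of 20 genes for the glycolytic steps that oppose the route 19 could be tested. Among these 6 (31.6%) were lower, 3 (15.8%) higher and 10 past no threshold, with a median of -0.15. The shares of all tested genes were 41.9% lower and 4.59% higher. pfkfb2b, for the enzyme that makes and breaks the phosphofructokinase activator fructose-2,6-bisphosphate, was at -0.83, pfkpa, a phosphofructokinase, at -0.65 and hk1, a hexokinase, at -0.58. pfkfb2a, the copy of pfkfb2b, was at 0.38, pkmb, a pyruvate kinase, at 0.35 and pfkma, the muscle type of phosphofructokinase, at 0.24. With TMM factors 1 was lower, pfkfb2b, and 6 were higher, against 16.5% and 15.9% of all tested genes. There pfkpa (-0.28) and hk1 (-0.22) did not pass.

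Of 24 glycogen genes 6 (25%) were lower, 4 (16.7%) higher and 14 past no threshold, with a median of -0.10. The shares of all tested genes were 41.9% lower and 4.59% higher. ugp2b, which makes UDP-glucose, was at -0.83, ppp1r3ca, a glycogen-targeting subunit of protein phosphatase 1, at -0.74 and gys2, the liver type of glycogen synthase, at -0.52. ppp1r3b, another such subunit, was at 0.62, pygma, muscle glycogen phosphorylase, at 0.34 and aglb, for the debranching enzyme, at 0.26. With TMM factors 2 were lower, ugp2b and ppp1r3ca, and 11 higher, against 16.5% and 15.9% of all tested genes. There gys2 (-0.17) did not pass.

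Among 19 partners and mitochondrial targets of PGC-1alpha 18 could be tested, and 9 (50%) were lower, 0 higher and 9 past no threshold. The shares of all tested genes were 41.9% lower and 4.59% higher, and the list median was -0.26. At an unadjusted p under 0.05 from edgeR 1 list gene was higher, and 0 passed as higher with limma, settings for which the share of all tested genes was not counted. With TMM factors 5 passed as higher and 5 as lower, against 15.9% and 16.5% of all tested genes, and with DESeq2 6 and 5. The largest falls were in the uncoupling proteins of the mitochondrial inner membrane, ucp3 at -1.15, ucp1 at -1.13 and ucp2 at -0.98, which were at -0.83, -0.78 and -0.64 with TMM factors and passed there too. Over the 6 lists together, 62 of 156 tested genes were lower and 11 higher, against 41.9% and 4.59% of all tested genes. With TMM factors 27 were lower and 43 higher, against 16.5% and 15.9% of all tested genes.

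**Figure D4:**
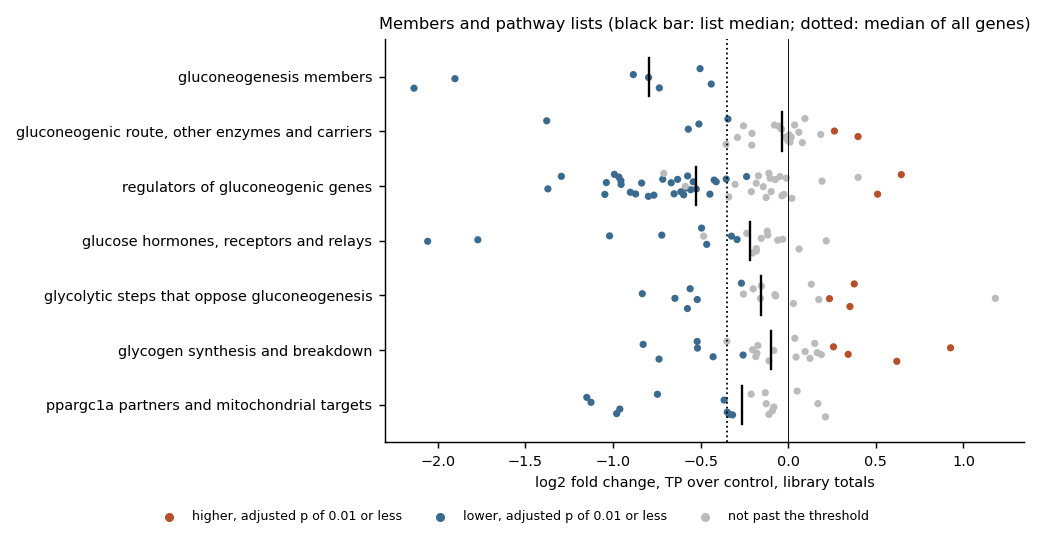
Log2 fold change (TP over control, library totals) of the 7 genes and of the genes of 6 pathway lists (points, spread vertically only for display), coloured by direction where the edgeR adjusted p was 0.01 or less; black bars are medians and the dotted line is the median of all tested genes, -0.35. pck1 and g6pca.2 lie near -2, where the lists hold igfbp1a and igfbp1b, while the other enzymes of the route centre on -0.04.

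How the 7 genes varied from pool to pool was described by the correlation, over the 16 libraries, of their log2 CPM deviations from the group means. The pools share depth and composition differences, and no test was made. The tandem copies g6pca.1 and g6pca.2 went together (r = 0.72), as did fbp1a and fbp1b (r = 0.70), whereas pck1 and pck2 did not (r = -0.03). Reads that fit both g6pca copies could have been placed on either, and their part in this correlation was not tested. Among 14052 genes averaging 5 CPM or more, those most like pck1 were mef2aa (0.91), sf3b1 (0.86) and gab2 (0.86), and those most like g6pca.2 were usp28 (0.85), si:ch211-199g17.2 (0.85) and ela2l (0.83). The genes most like pck2 were calr3a, tuba8l and stip1, each at 0.97. Levels of pck2 differed between libraries 1 to 4 and 5 to 8 in TP and in control pools. Deviations from the group means keep that difference, and its part in these correlations was not tested. znf395 (0.93) was most like fbp1b, si:ch211-91p5.3 (0.82) most like fbp1a, cd109 (0.89) most like g6pca.1 and plxnb2b (0.91) most like ppargc1a.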

How the data were processed

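Total RNA of 16 pools of 30 whole larvae was sequenced as paired reads after stranded library preparation. What the authors deposited is a table of raw, not normalized, counts for Ensembl transcripts, with positions on GRCz10, made from concordant read pairs aligned with Bowtie2. Besides Bowtie2, the submitters' processing notes list limma, SAMtools and FastQC, without versions. A read that fits more than 1 transcript could be on any of these, and the use of strand in counting is not stated in the methods or labels, so reads of antisense and overlapping genes could be mixed. No deposited count was odd, which would follow from counting each mate. The 57264 transcripts were summed into 31812 genes by gene ID. The 209 transcripts without a gene ID (0.220% to 0.282% of counts) stayed in the totals only. Symbols came from the table and, for 82.1% of gene IDs, a current symbol from the reference table.

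Genes kept by edgeR's expression filter were tested with edgeR 4.0.16 in R 4.3.3. Fold changes of single genes in the lists are from the same fit. Alternatives were TMM factors, DESeq2 1.42.0, limma 3.58.1 after scaling to the lowest library total, adding 1 and taking log2, totals without ribosomal and mitochondrial RNA, a minimum of 10 counts in 8 or more libraries, no filter at all, an adjusted p of 0.05, halved counts, the most abundant transcript, the libraries under and at or over 2% of si:dkey-153m14.1, and each library left out. Ratios were tested by exact permutation over 12870 splits in Python 3.11.15, where the smallest p is 1.6e-04. The fits were also run on simulated data in which as many genes were raised as lowered, unlike these data. That run therefore does not bear on the choice of scaling. Replicates of a group differed by more than sampling noise, with a chi-square per degree of freedom of at least 4.12 among TP and 3.85 among control libraries.

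The 7 genes and all lists were chosen with earlier results of these data known. Genes named by rule are the 7, up to 3 genes per list and direction with the largest change among those past the threshold with a mean of at least 1 CPM, and the genes most like each member. Some other list genes were named after their values were seen, as said where they appear. Hepatocyte markers were named where they passed the threshold or weighed most in the sum. Promoter and protein sequences were not used here.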

Additional observations from a re-analysis of the deposited data

Results flagged for a closer look

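Among 34 groups of 8 values examined for a pool far from the rest, 1 stood out, and chance sets apart about 1 group in 20. In control library 1 the log2 ratio of pck2 to the summed hepatocyte markers was -4.97, while the other control pools lay between -5.68 and -5.35. Without that library the difference between TP and control in this ratio was -0.15 (adjusted p = 0.020, exact permutation test), against -0.22 with all libraries.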

How the results depend on the processing

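Scaling decided how many genes passed. With TMM factors and with DESeq2, 3 of 7 genes were lower, and over the pathway lists 27 (TMM) and 28 (DESeq2) genes were lower and 43 and 50 higher. In the 2 TP and 4 control libraries under 2% of si:dkey-153m14.1, 3 of 7 genes were lower, with 15 list genes lower and 0 higher (edgeR). There pck2, fbp1a (-0.61, adjusted p = 0.015), g6pca.1 (-0.68, adjusted p = 0.079) and ppargc1a (-1.12, adjusted p = 0.075) did not pass (edgeR). In the libraries at or over 2% 6 of 7 genes and 38 list genes were lower. The share of all tested genes called was counted only for all libraries at the adjusted threshold, with library totals and with TMM factors. Counts in these sets, with DESeq2 or limma, at an unadjusted p or under the other settings have no background beside them. The smaller sets hold fewer libraries, and the 2% cut between them lies just below the shares of TP libraries 1 and 2. Ratios could not be tested in the first set, where the smallest p of an exact permutation test is 0.067. In the second set, pck2 over hepatocyte markers was at -0.10 (adjusted p = 0.14, exact permutation test). ppargc1a over hepatocyte markers passed against fabp10a alone (-1.15) and against the markers without rbp4 (-0.92), and lay between -0.68 and -0.44 with each library left out. No fold change or ratio of the 7 genes changed sign, while the balance of lower to higher list genes turned round with TMM factors and with DESeq2. Of the other settings, leaving out a library gave 6 to 7 genes lower, 56 to 66 list genes lower and 9 to 11 higher, limma and totals without ribosomal and mitochondrial RNA gave 6 of 7, and the paralog ratios kept their calls wherever they were tested. The search for promoter motifs was not run. No paired analysis was possible because the sample titles give each group numbers of its own, and the library numbers used here only name the pools. Depth limits ppargc1a most, with 746 counts over the TP libraries.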
